A study of Mus musculus with 8 samples.

Results

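The 44 genes described here encode proteins of synaptic vesicles and of the machinery that fuses and retrieves them. They were chosen by name, and all 44 were measured, among 18193 genes in all. Each gene is represented by its brightest probe set (by the mean of all arrays) that carries no other symbol. RNA of mouse trigeminal ganglia, where sensory neurons serving the face have their cell bodies, was hybridised to 8 Affymetrix whole-genome mouse arrays, and the deposited values are log2 expression values made with RMA. The series compared 4 arrays from mice transgenic for daDREAM with 4 arrays from control mice. Mice of both groups were of the C57B/6XCBA background and are described as adult males, and each transgenic title bears the tag tg16. Kcnip3 encodes DREAM, a transcriptional repressor that releases DNA when it binds calcium, and daDREAM is a mutant that keeps repressing when calcium rises. The sources used here do not give the promoter driving the transgene, how many animals each array stands for, or whether tg16 is 1 line. Kcnip3 itself differed by 0.03 (limma adjusted p = 0.880), and whether its probe set covers the transgene is not stated. The p-values therefore measure the spread between these samples, which may be technical in part.

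Transmitter leaves a neuron when a vesicle, loaded and held near the membrane, is fused by SNARE proteins after calcium binds a synaptotagmin. Active zone proteins tether and prime the vesicle beforehand, and a recycling set of proteins retrieves its membrane afterwards. Sensory neurons of the trigeminal ganglion use this machinery at their central endings in the brainstem and for release of neuropeptides from large dense-core vesicles. The transcripts are made in the cell bodies, which is the part of the neuron that a ganglion sample contains.

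Some arrays stood apart before any of these genes was considered. Xist, the RNA of the inactive X chromosome, read 11.51 on daDREAM replicate 4 and 10.20 and 11.72 on control replicates 3 and 4, against 6.10 to 6.49 on the other 5 arrays, so the Xist signal of 3 arrays went against the label of male mice. Eif2s3y, a gene of the Y chromosome, read 4.46 on daDREAM replicate 4 and 8.40 and 7.16 on control replicates 3 and 4, against 8.74 to 9.04 on the other 5 arrays, so these 3 arrays were not alike. The summed linear signal of 20 central nervous system markers ran from 12083 to 17172 on daDREAM arrays and from 5805 to 10931 on control arrays, without overlap. Neurod6 and Zic2 were the markers of that list with means below a log2 value of 6 in both groups, a level below which 18.6% of all genes lay and which was taken as near background. Among these markers 1 of 20 (5%) passed the limma test, the astrocyte water channel gene Aqp4, against 2% of all genes. Of the 20 differences 19 were above 0. An unadjusted limma p under 0.05 was found for 8 of the 20 (40%), all higher, against 18.2% of all genes. The sum of 10 pituitary markers, Gh among them, ran from 1418 to 19166 on daDREAM arrays and from 1625 to 7007 on control arrays. Summed skeletal muscle signal ran from 1615 to 1834 over 17 markers on daDREAM arrays and from 1838 to 4446 on control arrays. These ranges did not overlap, though they stood close at 1834 and 1838. None of the 17 passed the limma test, and 10 had an unadjusted p under 0.05 (58.8%), all lower, against 18.2% of all genes. The 19 measured sensory neuron markers included peripherin, the neurofilaments and Avil. Their sums were 111412 to 118069 on daDREAM arrays and 105097 to 116607 on control arrays. None of them passed the limma test, and 1 had an unadjusted p under 0.05 (5.26%, against 18.2% of all genes). The tissue label thus had its defining markers in both groups. An 18S ribosomal RNA control probe set (5′ part) read 7.24 to 7.75 on daDREAM arrays and 9.80, 7.24, 7.34 and 11.34 on control replicates 1 to 4. In a whole ganglion, fewer cells of a type and less RNA per cell cannot be told apart.

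Of the 44 genes, 1 passed the test and it was higher: Sv2c. The test was limma over all 18193 genes with a Benjamini-Hochberg adjusted p under 0.05, which called 2% of all genes, 0.984% of them as higher and 1.02% as lower in daDREAM ganglia. For the other 43 genes the differences ran from -0.28 to 0.44 on the log2 scale and the smallest adjusted p was 0.114. Their 95% confidence intervals lay within 0.5 log2 of 0 for 35 genes and within 1 log2 for all 43, and the highest upper bound, that of Dnm1, was 0.84, or 1.79-fold. The median difference of the 44 genes was 0.09, with 30 differences above 0 and 14 below, against 9090 of 18193 above 0 over all genes. At an unadjusted p under 0.05 there were 10 of 44 genes (22.7%), all higher, against 18.2% of all genes, with 8.89% of all genes higher and 9.29% lower. The groups did not overlap in 8 of the 44 genes, 7 of them higher and 1 lower, against 10.7% of all genes, with 5% higher and 5.73% lower. The 44 genes and the lists were chosen with earlier results of these arrays known, so these counts describe the genes and are not a test of them as a group.

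**Figure D1:**
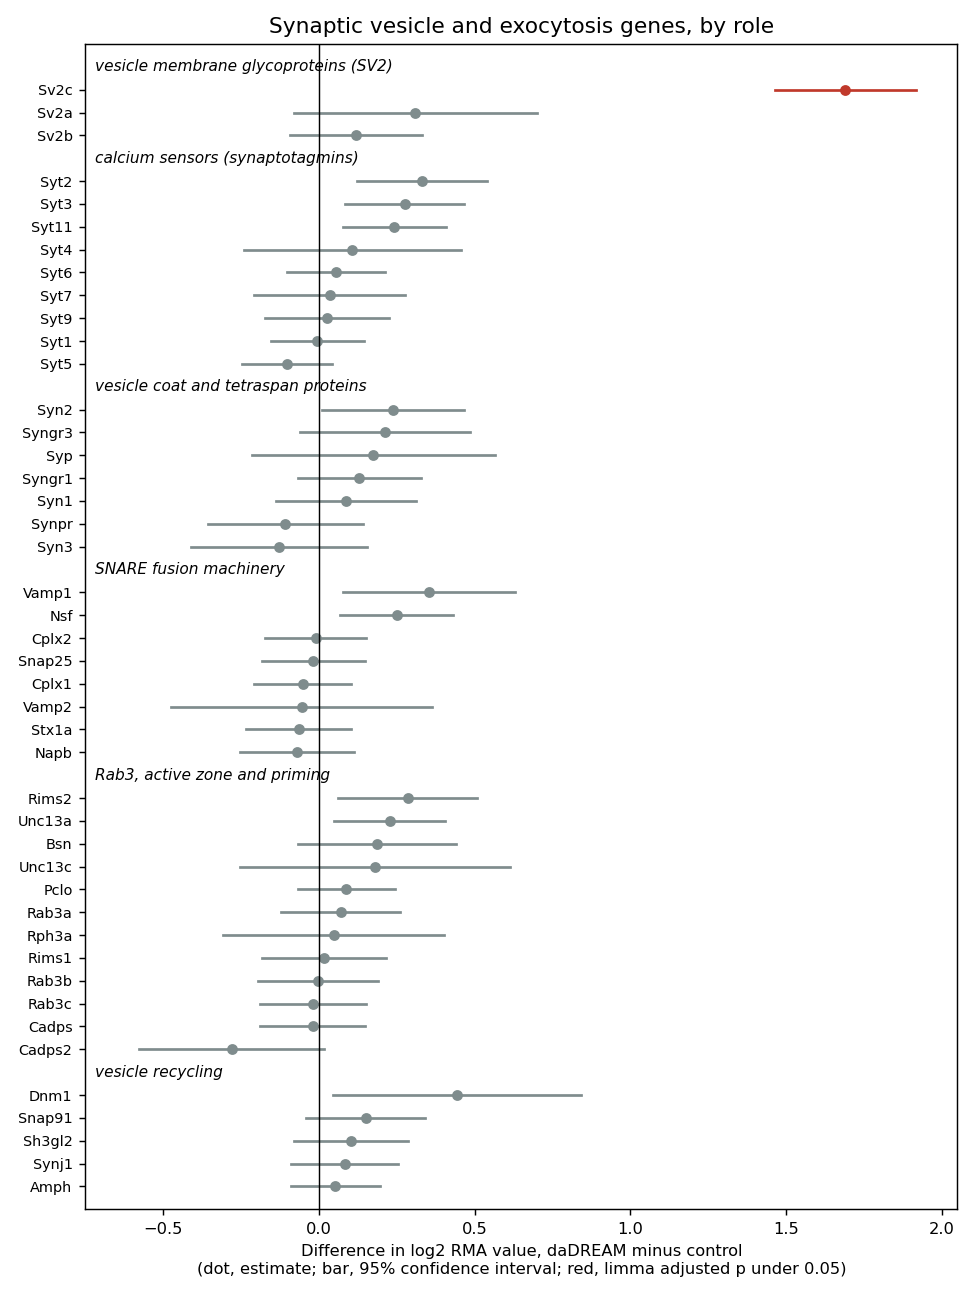
Differences in log2 RMA value (daDREAM minus control) of the 44 genes, ordered by role, with 95% confidence intervals from limma (4 arrays per group). Sv2c stands at 1.69, and every other gene lies between -0.28 and 0.44.

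The SV2 proteins are glycoproteins of the vesicle membrane with 12 membrane-spanning segments, and they modulate calcium-triggered release and serve as receptors for botulinum neurotoxins. Sv2c read 7.89, 8.20, 8.26 and 8.31 on daDREAM arrays 1 to 4, against 6.64, 6.47, 6.33 and 6.46 on control arrays 1 to 4. Every daDREAM array lay above every control array, and no array lay between the groups. The means were 8.17 ± 0.19 in daDREAM and 6.48 ± 0.13 in control ganglia (SD, n = 4 each), a 3.23-fold rise (difference 1.69, SE 0.10, 95% interval 1.46 to 1.92, limma adjusted p = 3.58e-06). Sv2c ranked 15 of 18193 genes by p and 6 by positive difference. It has 1 probe set annotated to it alone, so no second probe set could be set beside this value. The control arrays read just above the level taken as near background. Without the 3 arrays that carried Xist signal the difference was 1.56 (limma adjusted p = 0.00107), and without the 3 arrays with the most Gh (control replicate 3, daDREAM replicates 3 and 4) it was 1.52 (limma adjusted p = 0.00167). The summed central nervous system marker signal also did not overlap between the groups. Nor did the summed skeletal muscle signal, which was lower on daDREAM arrays (at most 1834, against at least 1838 on control arrays). Leaving out arrays cannot tell the part of either sum in the Sv2c difference apart, and neither part was tested.

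Its relatives did not pass. Sv2a, the form found at most synapses, read 9.19, 9.60, 9.66 and 9.36 on daDREAM arrays, against 9.21, 9.16, 9.59 and 8.61 on control arrays. The groups overlapped, and the lowest value was that of control replicate 4 (difference 0.31, SE 0.18, limma adjusted p = 0.377). Without that array the difference of Sv2a was 0.13. Sv2b, a form of more restricted distribution in the brain, differed by 0.12 (95% interval -0.09 to 0.33, limma adjusted p = 0.529) at its brighter probe set and by 0.25 at the other (limma adjusted p = 0.139 over probe sets). Within each array, the log2 value of Sv2c minus that of Sv2a was -1.29 ± 0.17 in daDREAM and -2.67 ± 0.46 in control ganglia (SD, n = 4 each), and Sv2c changed by 1.38 more than Sv2a (two-sided exact permutation test, p = 0.0286). Against Sv2b, Sv2c changed by 1.57 more (two-sided exact permutation test, p = 0.0286). Both p-values were also 0.0286 after Benjamini-Hochberg adjustment over the 2 contrasts, and this is the smallest p that 70 assignments of 8 arrays can give. These contrasts compare changes, since the levels of different probe sets cannot be compared. The contrasts reuse the array values by which Sv2c passed, so their p-values are not separate support for its rise.

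DREAM is known to bind a downstream regulatory element whose core letters are GTCA, often close to the start of transcription, so the windows around the starts of the SV2 genes are shown, with GTCA or its reverse complement TGAC in capitals. Each window runs from 250 bases before to 50 after the annotated start, from RefSeq on build GRCm38.p6, and is written 5′ to 3′ on the gene's strand. For Sv2b the most upstream of the 4 listed starts is shown. The Sv2c window lies at chr13:96132528-96132827 on the minus strand, that of Sv2a at chr3:96180977-96181276 on the plus strand and that of Sv2b at chr7:75309213-75309512 on the minus strand.
Sv2c: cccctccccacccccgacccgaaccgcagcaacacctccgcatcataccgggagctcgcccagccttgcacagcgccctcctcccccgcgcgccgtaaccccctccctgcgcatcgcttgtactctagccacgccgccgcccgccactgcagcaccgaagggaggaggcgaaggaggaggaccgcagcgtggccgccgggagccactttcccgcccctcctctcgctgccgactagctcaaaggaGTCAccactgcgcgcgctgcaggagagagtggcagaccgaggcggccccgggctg
Sv2a: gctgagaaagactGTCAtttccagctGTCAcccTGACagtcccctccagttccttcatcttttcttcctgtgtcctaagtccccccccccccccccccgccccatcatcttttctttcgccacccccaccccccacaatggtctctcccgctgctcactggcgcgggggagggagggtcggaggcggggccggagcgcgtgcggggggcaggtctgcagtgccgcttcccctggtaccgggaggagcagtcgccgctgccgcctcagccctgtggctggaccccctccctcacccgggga
Sv2b: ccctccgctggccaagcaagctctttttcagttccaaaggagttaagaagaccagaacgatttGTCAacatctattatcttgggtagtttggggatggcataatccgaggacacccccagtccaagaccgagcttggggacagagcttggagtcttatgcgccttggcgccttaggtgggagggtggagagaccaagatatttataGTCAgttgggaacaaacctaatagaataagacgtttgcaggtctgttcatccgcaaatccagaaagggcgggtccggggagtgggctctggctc
The Sv2c window held the letters once, on the gene's strand, with the first base 5 bases before the start. In Sv2a they were found 3 times, beginning 237, 224 and 217 bases before the start, the last on the opposite strand. The Sv2b window shown had 2 matches, 187 and 44 bases before the start. Of the Sv2b windows not shown, that at chr7:75302560-75302859 had matches beginning 9 bases before its start and at base 17 from it. The window at chr7:75308337-75308636 had a match 237 bases before its start, on the opposite strand, and the last had none. So short a run of letters is common: at least 1 match was present in 85.2% of all 32851 listed windows, with a median of 2 per window. Among the 44 genes 36 had a listed window, and 31 of these 36 had a match in at least 1 window (83.7% of their 49 windows). The longer element TGACGTCA, to which factors of the CREB family bind and which contains both GTCA and TGAC, was found in none of these windows of the 3 SV2 genes, in 2 of the 49 windows of the 44 genes and in 1.79% of all windows. A match describes letters and does not show binding.

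Genes beside Sv2c on chromosome 13 also differed. Sv2c and its 5 measured neighbours on either side in the RefSeq gene order of GRCm38.p6 are, in order, Aggf1, Crhbp, F2r, Iqgap2, F2rl2, Sv2c, Poc5, Ankdd1b, Polk, Cert1 and Ankrd31. Among the 10 neighbours 2 passed the limma test, where 2% of all genes passed. F2r, which encodes a thrombin receptor, read 10.28, 10.36, 10.35 and 10.42 on daDREAM arrays, against 9.67, 9.36, 9.63 and 9.77 on control arrays. The groups did not overlap, and F2r was 1.68-fold higher in daDREAM ganglia (difference 0.75, SE 0.09, limma adjusted p = 0.00102), and its other probe set differed by 0.62 (limma adjusted p = 0.0189 over probe sets). Crhbp, the binding protein of corticotropin-releasing hormone, passed as lower (-0.35, limma adjusted p = 0.0307), with means of 5.20 in daDREAM and 5.55 in control ganglia that are near background. The measured genes closest to Sv2c in this order, F2rl2 and Poc5, differed by -0.06 and 0.16 without passing (limma adjusted p = 0.818 and 0.302). Cplx2, Rab3c and Amph, 3 other vesicle genes of chromosome 13, differed by -0.01, -0.02 and 0.05 at their brightest probe sets. Dimmer probe sets of Cplx2 differed by 0.49 and 0.13, and limma over probe sets called the former (adjusted p = 0.0311). Those of Rab3c differed by 0.34, 0.12, -0.05 and -0.075, and none was called. At 0.34 the groups did not overlap, and limma over probe sets gave an adjusted p of 0.0921.

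**Figure D2:**
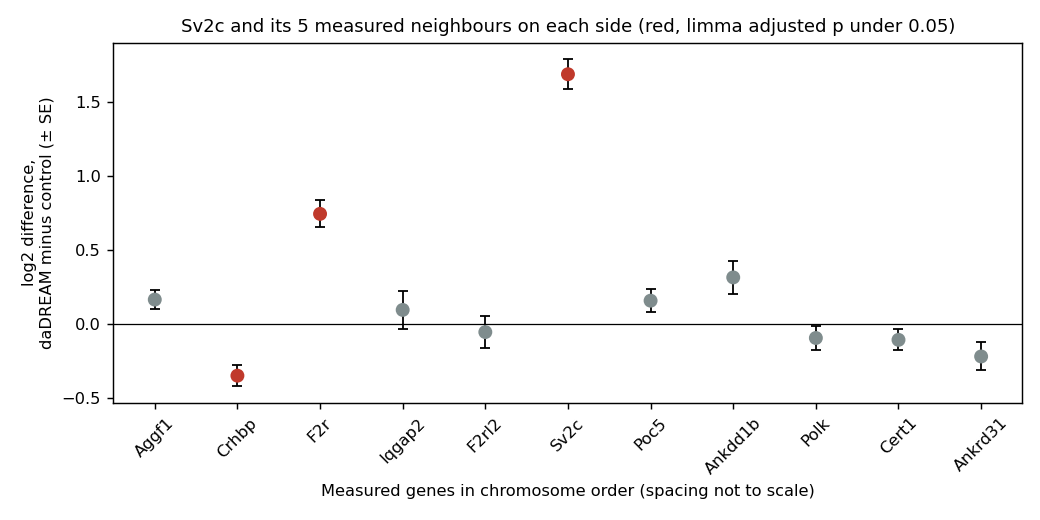
Log2 differences (daDREAM minus control, ± SE, 4 arrays per group) of Sv2c and the 5 measured genes on each side of it in chromosome order. Sv2c (1.69) and F2r (0.75) passed as higher and Crhbp (-0.35) as lower. Among the measured genes F2r and Crhbp are next to each other, and Iqgap2 and F2rl2, which did not pass, lie between F2r and Sv2c.

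Synaptotagmins are the calcium sensors of release, and none of the 9 passed the limma test. An unadjusted p under 0.05 was found for 3 of the 9, all higher, against 18.2% of all genes. The groups did not overlap in these 3 and in 1 that was lower, against 10.7% of all genes. Syt2, the fast sensor of hindbrain and spinal synapses, read 11.19, 11.33, 11.41 and 11.14 on daDREAM arrays, against 10.97, 11.00, 11.07 and 10.71 on control arrays. The lowest daDREAM array was 0.07 above the highest control array, and control replicate 4 was the lowest of all (difference 0.33, SE 0.10, limma adjusted p = 0.114). Syt11, a form that does not bind calcium, read 12.86, 12.88, 12.85 and 12.77 on daDREAM arrays, against 12.45, 12.70, 12.57 and 12.67 on control arrays (difference 0.24, limma adjusted p = 0.138). Here control replicate 1 was lowest, and the 4 other probe sets of Syt11 read from -0.13 to 0.09. Syt3, a sensor of high calcium affinity, read 8.36, 8.35, 8.42 and 8.25 on daDREAM arrays, against 7.88, 8.20, 8.19 and 8.01 on control arrays (difference 0.28, limma adjusted p = 0.142). Syt5 was the 1 gene of all 44 whose daDREAM arrays (8.38 to 8.41) all lay below the control arrays (8.44 to 8.60), by a difference of -0.10 that did not pass (limma adjusted p = 0.426). Syt1, the main sensor of forebrain synapses, read 11.24 to 11.38 on daDREAM arrays, against 11.27 to 11.40 on control arrays. Its difference of 0.00 at this brightest probe set had a 95% interval of -0.15 to 0.14. Dimmer probe sets of Syt1 differed by 0.30, 0.15 and 0.085 without passing (limma adjusted p = 0.134, 0.423 and 0.755 over probe sets). Syt7, a slow sensor, differed by 0.04, Syt9 by 0.03, Syt6 by 0.06 and Syt4, found on dense-core vesicles, by 0.11, and none of these passed. With the arrays quantile-normalized anew, Syt7 differed by -0.03 and Syt9 by -0.04.

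Among synapsins, which tie vesicles to actin, and the tetraspan vesicle proteins, 0 of 7 passed the limma test. An unadjusted p under 0.05 was found for 1 of the 7, against 18.2% of all genes. Syn2 read 10.08, 10.19, 10.12 and 9.99 on daDREAM arrays, against 9.90, 9.98, 10.01 and 9.54 on control arrays. The groups overlapped by 1 array of each, and control replicate 4 lay well below the rest (difference 0.24, SE 0.10, limma adjusted p = 0.260). Syngr3, a synaptogyrin, read 10.44, 10.44, 10.32 and 10.23 on daDREAM arrays, against 9.99, 10.45, 10.30 and 9.84 on control arrays, and control replicate 2 was the highest array (difference 0.21, limma adjusted p = 0.385). Synaptophysin (Syp), an abundant vesicle membrane protein, differed by 0.18 with a 95% interval of -0.22 to 0.57, and its control replicate 4 read 10.46 where the other control arrays read 11.20 to 11.37. Without control replicate 4 the difference of Syp was -0.03. Syn1 differed by 0.09, Syngr1 by 0.13, Syn3 by -0.13 and synaptoporin (Synpr) by -0.11, none of which passed.

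Of the 8 SNARE genes 0 passed the limma test and 2, Vamp1 and Nsf, had an unadjusted p under 0.05, against 18.2% of all genes. Snap25, the membrane SNARE that botulinum toxin A cuts, read 13.83, 13.87, 13.91 and 13.69 on daDREAM arrays, against 13.93, 13.75, 13.83 and 13.86 on control arrays (difference -0.02, 95% interval -0.18 to 0.15). The groups overlapped throughout. Its partner Stx1a differed by -0.07 (95% interval -0.23 to 0.10), and the complexins Cplx1 and Cplx2, which clamp the assembled SNAREs, by -0.05 and -0.01. Vamp1, the vesicle SNARE of hindbrain and spinal neurons, read 12.54, 12.81, 12.87 and 12.60 on daDREAM arrays, against 12.26, 12.48, 12.63 and 12.04 on control arrays. Only control replicate 3 reached into the daDREAM range (difference 0.35, SE 0.13, limma adjusted p = 0.184). Vamp2, its forebrain counterpart, differed by -0.06 with all arrays and by -0.27 without control replicate 4 (limma adjusted p = 0.350 there). Nsf, the ATPase that takes SNARE complexes apart, read 12.75, 12.96, 12.92 and 12.73 on daDREAM arrays, against 12.65, 12.55, 12.69 and 12.47 on control arrays, without overlap (difference 0.25, limma adjusted p = 0.156). Napb, its adaptor, differed by -0.07. Of the 8 differences 6 lay below 0.

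Of 12 genes for Rab3 proteins, active zone scaffolds and priming factors, 0 passed the limma test. An unadjusted p under 0.05 was found for 2 of the 12, against 18.2% of all genes. Rims2, a scaffold that binds Rab3 and calcium channels, read 9.62, 9.51, 9.57 and 9.42 on daDREAM arrays, against 9.39, 9.23, 9.40 and 8.96 on control arrays. The groups stood 0.02 apart at the closest (difference 0.29, SE 0.10, limma adjusted p = 0.182). Dimmer probe sets of Rims2 differed by 0.16, 0.12, -0.15 and -0.21, and none of these passed over probe sets. Unc13a, the main Munc13 priming factor, read 8.57, 8.62, 8.65 and 8.43 on daDREAM arrays, against 8.34, 8.42, 8.42 and 8.18 on control arrays, 0.01 apart at the closest (difference 0.23, limma adjusted p = 0.185). Bsn, the scaffold bassoon, read 9.42, 9.62, 9.41 and 9.06 on daDREAM arrays, against 9.24, 9.36, 9.11 and 9.05 on control arrays (difference 0.19, limma adjusted p = 0.410). Cadps2, a priming factor of dense-core vesicles, had the lowest difference of all 44 genes: 9.67, 9.29, 9.40 and 9.10 on daDREAM arrays, against 9.84, 9.85, 9.48 and 9.41 on control arrays. Its groups overlapped through daDREAM replicate 1 (difference -0.28, SE 0.14, limma adjusted p = 0.302), while its relative Cadps differed by -0.02. The scaffold piccolo (Pclo) differed by 0.09, Rims1 by 0.02 and the cerebellar priming factor Unc13c by 0.18. Rab3a, Rab3b and Rab3c, small GTPases of the vesicle surface, differed by 0.07, 0.00 and -0.02, and rabphilin (Rph3a), their effector, by 0.05. With the arrays quantile-normalized anew, Rims1 differed by -0.05 and Rph3a by -0.01.

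In the recycling group all 5 differences lay above 0 and 0 passed the limma test. Of the 5, 1, that of Dnm1, had an unadjusted p under 0.05, against 18.2% of all genes. Dnm1, the neuronal dynamin that pinches off retrieved vesicles, read 12.44, 12.65, 12.71 and 12.41 on daDREAM arrays, against 11.91, 12.43, 12.52 and 11.58 on control arrays. Control replicates 2 and 3 lay within the daDREAM range and control replicates 1 and 4 well below it (difference 0.44, SE 0.18, limma adjusted p = 0.236). Snap91, the clathrin adaptor AP180, read 11.87, 11.98, 11.98 and 11.75 on daDREAM arrays, against 11.88, 11.72, 11.81 and 11.57 on control arrays (difference 0.15, limma adjusted p = 0.384). Endophilin (Sh3gl2) differed by 0.10, the lipid phosphatase synaptojanin (Synj1) by 0.08 and amphiphysin (Amph) by 0.05.

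**Figure D3:**
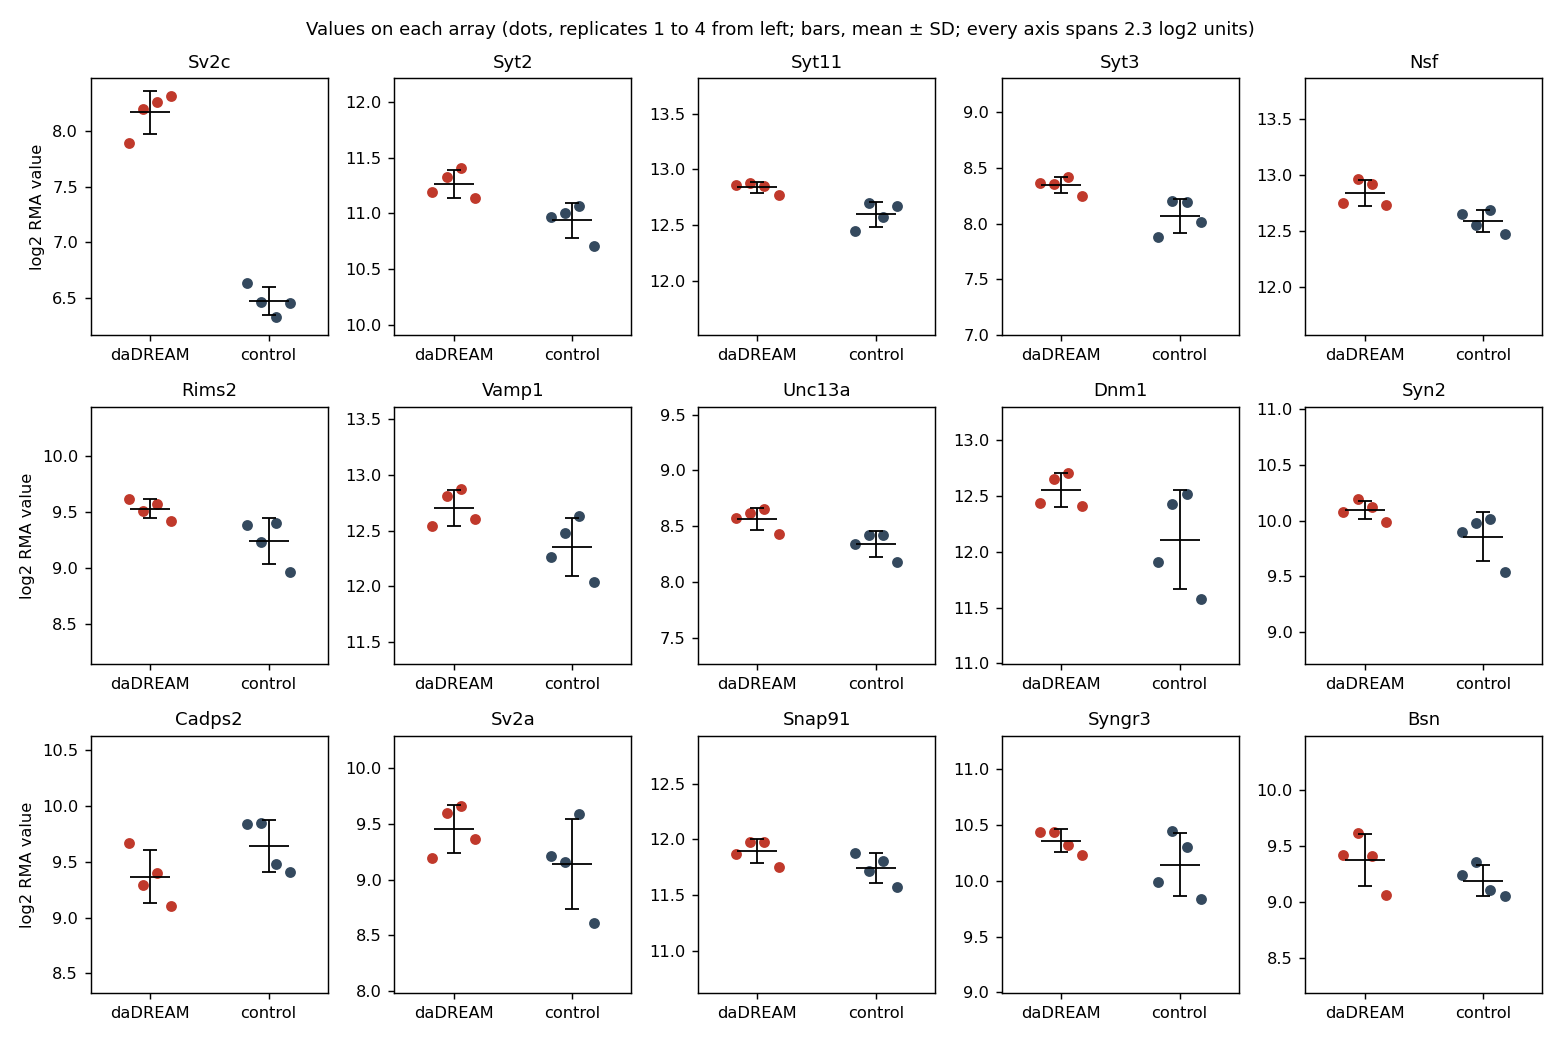
Log2 RMA values on each array for Sv2c and the 14 genes with the next smallest p (daDREAM left, control right, mean ± SD, n = 4 each, axes of equal span). Sv2c is the 1 gene whose groups stand far apart, and control replicate 4 (rightmost dot) is the lowest array for many of the others.

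From array to array, control replicate 4 was most often the lowest. On that array 23 of the 44 genes (52.3%) had their lowest value of the 8 arrays, where 26.9% of all genes did, and 2 had their highest. The median deviation of the 44 genes from their own mean over the arrays was -0.19 on control replicate 4, against 0.03, 0.11, 0.10 and -0.04 on daDREAM replicates 1 to 4 and -0.03, -0.01 and 0.01 on control replicates 1 to 3. The same array had the lowest mean of the central nervous system markers (-0.75 from their mean over the arrays) and the highest 18S signal; the part of either in the values of the vesicle genes was not tested. Without control replicate 4, 25 differences lay above 0 and 19 below, the median was 0.02, and 9 genes had an unadjusted p under 0.05, where 48.0% of all genes lay above 0 and 14.9% had such a p. The differences of 5 genes, Syp, Rph3a, Rims1, Syt7 and Syt9, were above 0 with all arrays and below 0 without that one. There Sv2c was again the 1 gene past the test (difference 1.69, limma adjusted p = 3.22e-05), Dnm1 differed by 0.27, Syn2 by 0.13 and Syt2 by 0.25. The SD between arrays was larger in control ganglia for 32 of the 44 genes, and for 63.8% of all genes.

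**Figure D4:**
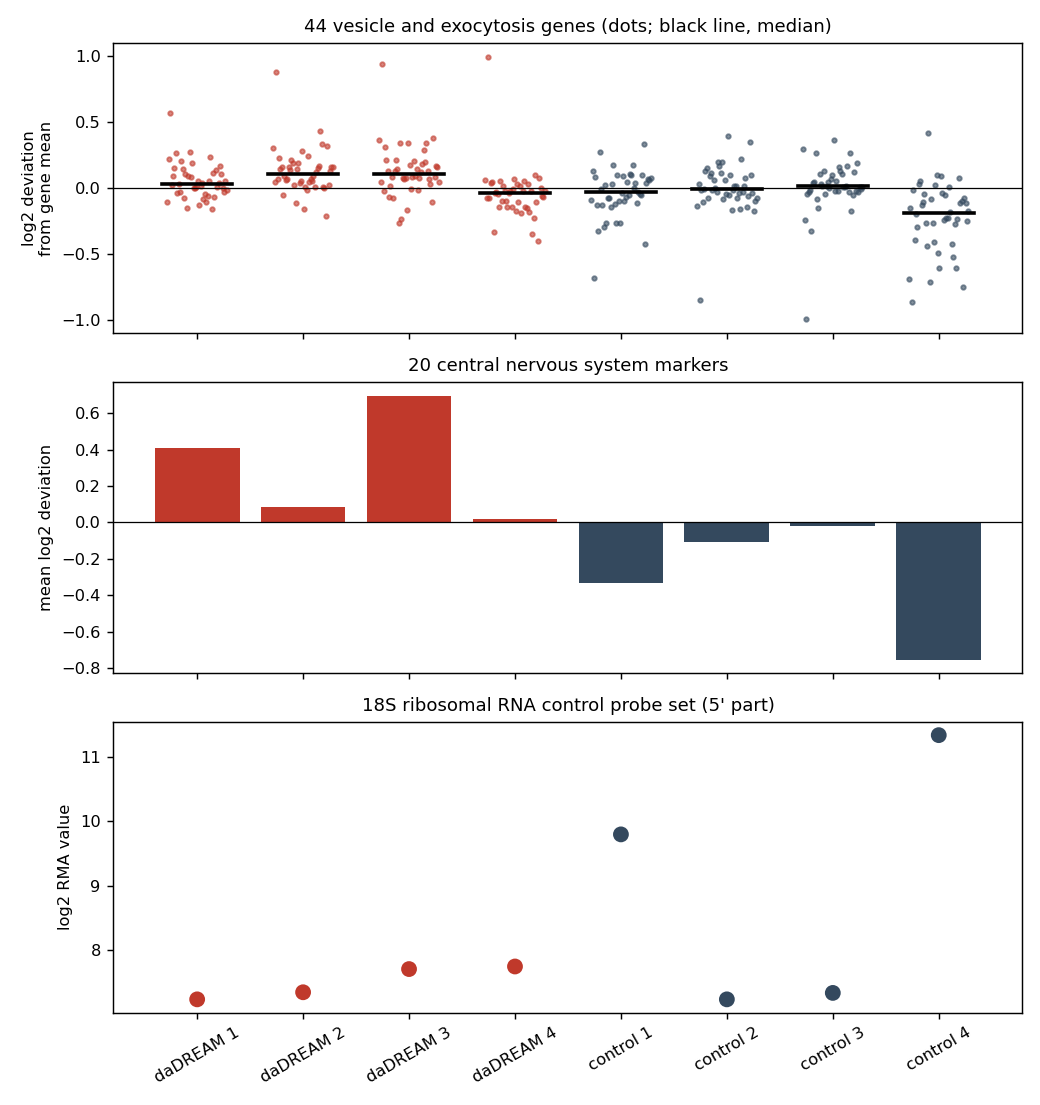
Per array, the log2 deviation of each of the 44 genes from its mean over 8 arrays (top), the mean deviation of 20 central nervous system markers (middle) and the log2 value of an 18S control probe set (bottom). The median of the 44 genes is lowest on control replicate 4 (-0.19), which also has the lowest marker mean (-0.75) and the highest 18S value (11.34); the outlying dots near 1 and -1 are Sv2c.

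Different probe sets of a gene gave different answers for part of the machinery. The 44 genes had 112 single-symbol probe sets, and 32 genes had more than 1. Over all 45037 probe sets limma called 2.74%, and of the 112 it called 5, all higher: that of Sv2c and a second, dimmer probe set each of Syt2, Bsn, Cplx2 and Vamp1, genes that did not pass at their brightest one. The dimmer Syt2 probe set read 8.03, 8.16, 8.45 and 8.09 on daDREAM arrays, against 6.90, 7.27, 7.80 and 7.52 on control arrays (difference 0.81, limma adjusted p = 0.0230 over probe sets, against 0.33 at the brightest). At Bsn the dimmer one read 8.09, 7.78, 7.91 and 7.55 on daDREAM arrays, against 6.98, 7.27, 7.45 and 7.26 on control arrays (difference 0.59, limma adjusted p = 0.0268 over probe sets). For Cplx2 the values were 9.49, 9.58, 9.57 and 9.43 on daDREAM arrays, against 8.86, 8.91, 8.97 and 9.36 on control arrays (difference 0.49, limma adjusted p = 0.0311 over probe sets). For Vamp1 they were 10.52, 10.93, 10.84 and 10.70 on daDREAM arrays, against 9.58, 10.15, 10.40 and 10.21 on control arrays (difference 0.66, limma adjusted p = 0.0471 over probe sets). In all 4 probe sets the groups did not overlap and control replicate 1 was the lowest array. Without control replicate 4, 3 of the 112 passed (Sv2c, Syt2 and Cplx2), and without control replicates 1 and 4, 2 passed (Sv2c and Cplx2). Control replicates 1 and 4 had the most 18S signal. They also had the lowest Gfap values (8.63 and 8.29) and the lowest means of the central nervous system markers (-0.33 and -0.75). Leaving them out cannot tell these signals apart, and the part of each in these calls was not tested. Of the 68 probe sets that did not represent their gene, 35 had a larger and 33 a smaller difference than the brightest one, and 26 had the opposite sign.

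**Figure D5:**
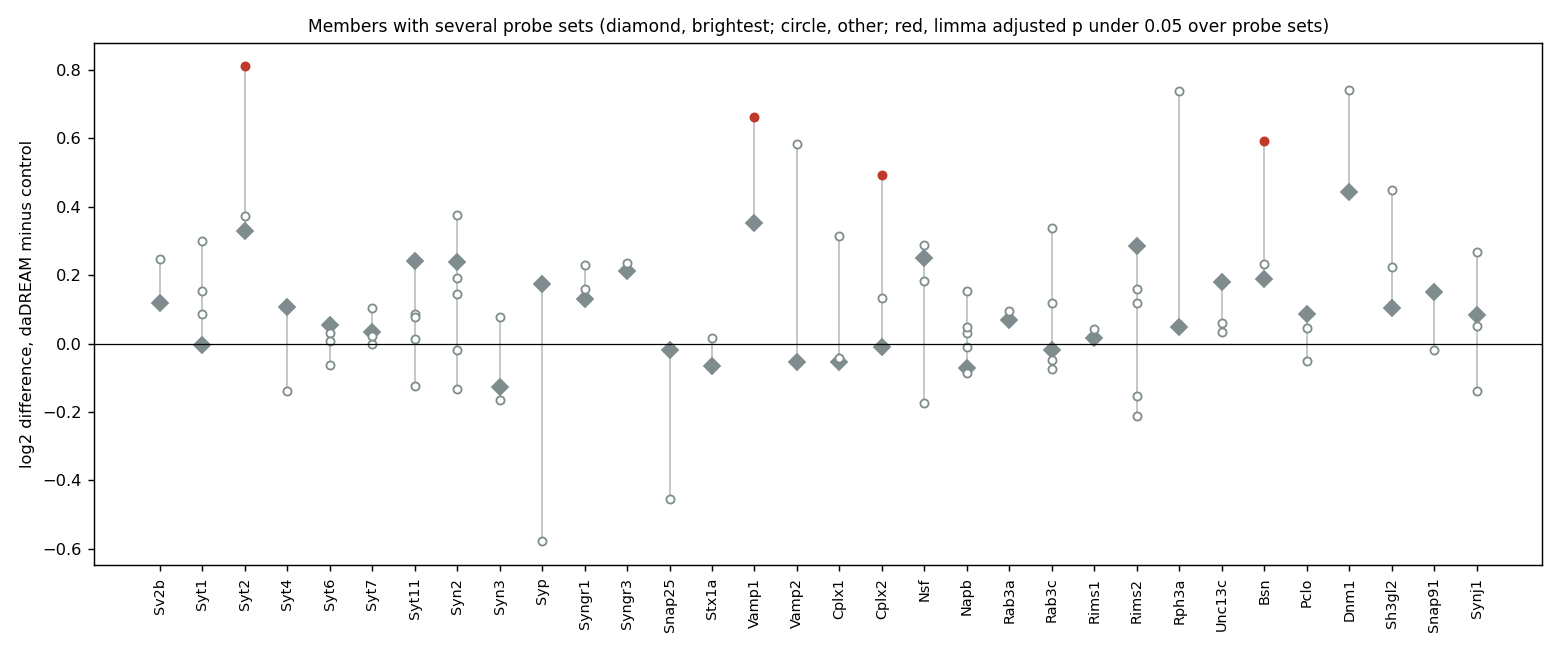
Log2 differences (daDREAM minus control) at every single-symbol probe set of the 32 genes that have several, with the brightest as a diamond. The 4 red circles are dimmer probe sets of Syt2 (0.81), Vamp1 (0.66), Bsn (0.59) and Cplx2 (0.49), which passed over probe sets while the diamonds of these genes did not.

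A wider list of 106 other exocytosis and vesicle recycling genes, 96 of them measured, gave no call at the brightest probe sets. None of the 96 passed the limma test or the unequal-variance test, 21 had an unadjusted limma p under 0.05 (21.9%, against 18.2% of all genes), 19 of these higher and 2 lower, and the median difference was 0.05. The smallest p belonged to Syt14, a calcium-independent synaptotagmin, which read 8.01, 8.01, 7.84 and 7.92 on daDREAM arrays, against 7.71, 7.75, 7.68 and 7.42 on control arrays (difference 0.31, limma adjusted p = 0.110). Vamp4, a SNARE of endosomal and bulk retrieval routes, ran the other way, at 11.08, 11.07, 11.00 and 10.91 on daDREAM arrays, against 11.41, 11.32, 11.20 and 11.20 on control arrays (difference -0.27, limma adjusted p = 0.112). Both showed groups that did not overlap. Syt12 differed by 0.35 (limma adjusted p = 0.114) and Vamp8, an endosomal SNARE, by 0.31 (limma adjusted p = 0.148). Over probe sets 1 of the list passed, a dim one of Erc1, which encodes the active zone protein ELKS: it read 7.59, 7.34, 7.44 and 7.22 on daDREAM arrays, against 6.11, 5.84, 5.78 and 5.73 on control arrays. The groups did not overlap, and the control mean of 5.87 is near background (difference 1.53, limma adjusted p = 5.88e-06 over probe sets), while the brightest probe set of Erc1 differed by 0.09 (limma adjusted p = 0.572).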

How the data were processed

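The authors deposited log2 values per probe set, made with RMA in affy per the submitters' processing notes. RMA corrects background, quantile-normalizes arrays and summarises probes by median polish, which makes each difference relative to that of most genes; the sources used here give no version. Of 45101 probe sets, 45037 were tested after removal of 64 Affymetrix controls, and 34945 of these carried 1 symbol in the platform annotation, 932 several and 9160 none. Array medians ran from 7.09 to 7.13 and no arrays were identical; precision is limited by how few arrays there are. The test was limma 3.58.1 (R 4.3.3), with group as the only term, two-sided, with Benjamini-Hochberg adjustment over 18193 genes, a step tested on simulated data; figures used matplotlib 3.10.9. The within-array SV2 contrasts used an exact permutation test.

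Values per array are given for genes past the test and the 14 next smallest p among the members, and for the smallest p of the wider list; all markers come from written lists. Syt1, Syt5, Snap25 and the dimmer probe sets were singled out after their values were seen. Members, lists and alternatives were chosen with earlier results of these data known. Neighbour order and start windows came from RefSeq (GRCm38.p6); the arrays name no build.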

Additional observations from a re-analysis of the deposited data

How the results depend on the processing

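Sv2c passed under every alternative run, with differences from 1.52 to 1.78, and leaving out each array in turn left it the only 1 of the 44 genes past the test (1 to 1 genes). With other probe set choices more of the 44 passed: 3 with the mean of probe sets (Sv2c, Syt2, Bsn), and 5 both with the next brightest probe set and over all probe sets (also Vamp1 and Cplx2). Of the wider list 1 passed with renewed quantile normalization (Vamp4), 1 with the mean of probe sets (Erc1) and 1 over all probe sets (Erc1). With the replicate block 3 of the 44 (Sv2c, Syt2, Vamp1), 2 of the wider list (Bin1, Syt12) and 672 of all genes passed; same-numbered arrays correlated in their deviations at 0.21, 0.01, 0.33 and 0.36. The labels name no shared animal or batch and replicate 2 lay under 0.1, the bound required of every number, so the numbers were not taken as pairs; not every array correlated best with its own number. The 364 calls over all genes became 49 with the unequal-variance test, 181 and 703 at adjusted p under 0.01 and 0.1, 776 over probe sets, 229 to 349 without each array, 98 without the arrays with the most Gh, 171 without those with the most Acta1, 213 without those with Xist and 227 without those with the lowest Gfap. In these last sets the Sv2c minus Sv2a change was 1.12, 1.13, 1.26 and 1.69 and the Sv2c minus Sv2b change 1.39, 1.58, 1.54 and 1.60; their exact permutation p-values, 0.1 or 0.0667, were the smallest so few arrays can give. Member probe set calls, 5 with all arrays, were 3 without control replicate 4 and 2 without control replicates 1 and 4, alternatives chosen after seeing the data. Fewer arrays were fitted there; other causes were not tested.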

Other observations

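At Syp and Snap25 the difference of a dim probe set was below 0 and below that of the bright one. For Syp the dimmer probe set had means of 6.12 in daDREAM and 6.70 in control ganglia (difference -0.58, limma adjusted p = 0.122 over probe sets), against 0.18 at the brighter. For Snap25 the dimmer ran from 6.48 to 6.69 on daDREAM arrays and from 6.45 to 7.55 on control arrays (difference -0.46, limma adjusted p = 0.275 over probe sets), against -0.02 at the brighter. Neither passed. Dimmer probe sets of Dnm1 (0.74), Rph3a (0.74), Vamp2 (0.58) and Sh3gl2 (0.45) were higher by more than the brightest ones without passing (limma adjusted p = 0.126, 0.174, 0.259 and 0.0585 over probe sets). Without control replicates 1 and 4 these probe sets differed by 0.27, 0.21, 0.06 and 0.335. The dimmer ones of Syp and Snap25 then differed by -0.23 and 0.01.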
